A study of Arabidopsis thaliana with 4 samples.

Results

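Across 4 arrays, 5 genes were followed: PHV, HAT2, YAB3, YAB5 and GH3.3, which are regulators of leaf polarity or are linked to auxin. They were taken as the probe sets annotated to these names, 261800_at for PHV and 248801_at for HAT2 as given, and 255709_at for YAB3, 245029_at for YAB5 and 245076_at for GH3.3 from the annotation table. Each gene had 1 probe set, so the 5 genes are 5 of the 22746 probe sets analysed. Their loci are AT1G30490 (PHV), AT5G47370 (HAT2), AT4G00180 (YAB3), AT2G26580 (YAB5) and AT2G23170 (GH3.3), on chromosomes 1, 5, 4, 2 and 2.

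The study placed REVOLUTA (REV), an HD-ZIP III transcription factor of Arabidopsis, under steroid control in order to find genes that respond to it directly. The transgene, GR-REV, carries the glucocorticoid receptor domain at the amino end of REV, is driven throughout the plant by the viral CaMV35S promoter, and has a microRNA site that no longer pairs. Wild type Landsberg erecta (Ler) and GR-REV seedlings were cultured in liquid for 10 days, with 100 seeds per flask, and treated for 1 h. The 4 groups were wild type mock (0.1% ethanol), wild type dexamethasone (50 µg/ml in 0.1% ethanol), GR-REV mock (0.1% ethanol) and GR-REV dexamethasone (50 µg/ml in 0.1% ethanol), each with 1 flask and 1 Affymetrix ATH1 array. GR-REV seedlings also carry the endogenous REV gene, and whether the line represents 1 or several insertions was not stated in the labels.

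For the pair of GR-REV arrays the labels conflict: titles and treatment protocols give one assignment, and the source names give the reverse. Titles and protocols are followed here; under the source names every difference between these arrays changes sign. The induced gene itself was not analysed here, because the annotation used lists no probe set for REV. Between 58.9% and 62.9% of probe sets lay above a floor of 91.4 signal units, the 40th percentile of all signals, and wild type mock had the highest share. The root gene PYK10 (BGLU23), a beta-glucosidase gene, had signals of 10171 to 16494 on the 4 arrays. EXPA7, a root hair gene, was at the floor on every array, and no leaf marker on the list used had a probe set listed, so the presence of leaf tissue was not checked.

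A leaf has an upper (adaxial) and a lower (abaxial) side, whose identities are set by transcription factors that oppose each other. HD-ZIP III proteins such as REV and PHV (PHAVOLUTA) specify the adaxial side, and their transcripts are cut on the abaxial side by the microRNAs miR165 and miR166. YABBY genes, among them YAB3 and YAB5, are expressed on the abaxial side of lateral organs and promote lamina growth. HD-ZIP II proteins such as HAT2 are mostly repressors whose genes respond to auxin or to shade, and members of that family have been reported as targets of REV. GH3.3 encodes an enzyme that conjugates auxin to amino acids, and its own transcription is induced by auxin, so it is widely read as an auxin response gene.

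HAT2 and GH3.3 differed by at least 2-fold between the GR-REV dexamethasone and mock arrays, in opposite directions, and PHV, YAB3 and YAB5 did not. HAT2 was 2.65-fold higher and GH3.3 was 2.44-fold lower with dexamethasone. None of the 5 genes differed by 2-fold between the wild type arrays, where GH3.3 had the furthest difference, 1.59-fold lower. No gene of the 5 passed the limma test for genotype or for treatment. All 5 lay above the floor on all 4 arrays, with the lowest signal of each between 3.03 and 5.15 times the floor. With 1 array per group the dexamethasone differences have no replicate error, no spread could be set beside the order of the levels, and neither was tested.

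PHV, the HD-ZIP III paralogue of REV, had signals of 342 (mock) and 276 (dexamethasone) in the wild type, and of 314 (mock) and 384 (dexamethasone) in GR-REV. The highest and the lowest array thus were GR-REV dexamethasone and wild type dexamethasone, 1.39-fold apart. With dexamethasone PHV was 1.22-fold higher in GR-REV but 1.24-fold lower in the wild type arrays. On the log2 scale these differences were 0.29 and -0.31. The wild type value depends on how the arrays are scaled: it was -0.17 after quantile normalization and -0.10 with each array divided by its median, where GR-REV stayed at 0.27 and 0.28. Of all tested probe sets, 2780 of 14034 were as high as PHV or higher in the GR-REV pair. In whole seedlings, a change in the share of cells that express a gene and a change in RNA per cell cannot be told apart.

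HAT2, the HD-ZIP II gene, had signals of 450.0 (mock) and 463 (dexamethasone) in the wild type, and of 405 (mock) and 1074 (dexamethasone) in GR-REV. The first 3 lay within 1.14-fold of each other, and GR-REV dexamethasone stood 2.32-fold above the nearest of them. HAT2 was the 1 gene of the 5 at least 2-fold above each other array there, as were 0.563% of all tested probe sets. The difference within the GR-REV pair was 1.41 on the log2 scale, against 0.04 in wild type. In the GR-REV pair 91 of 14034 tested probe sets were as high or higher. The GR-REV difference exceeded the wild type one by 1.37 on the log2 scale, and 218 tested probe sets had an excess as high or higher. Under the source names, HAT2 stands highest in the GR-REV mock array and differs by -1.41 in that pair.

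**Figure D1:**
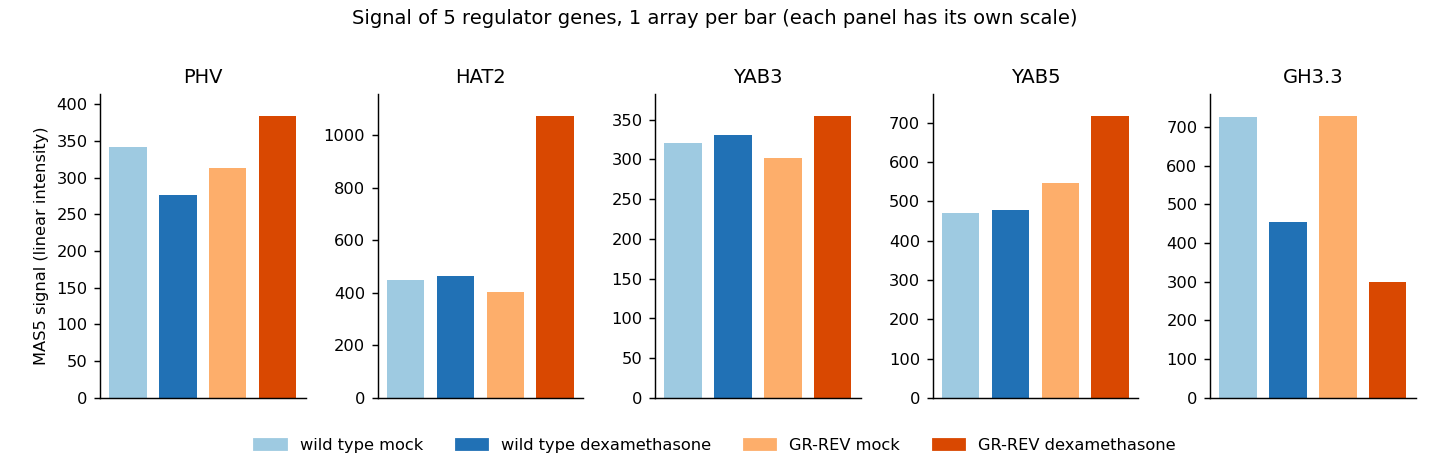
MAS5 signal (linear intensity, vertical axis from 0, each panel with its own scale) of PHV, HAT2, YAB3, YAB5 and GH3.3, with 1 bar per array and no error bars because each group has 1 array. HAT2 reached 1074 in GR-REV dexamethasone against 405 to 463 elsewhere, and GH3.3 was at 725 and 728 in the mock arrays and at 455 and 299 in the dexamethasone arrays.

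YAB3, an abaxial YABBY gene, had the flattest profile of the 5, with signals of 321 (mock) and 330.3 (dexamethasone) in the wild type, and of 302 (mock) and 355 (dexamethasone) in GR-REV. Its highest array, GR-REV dexamethasone, lay 1.18-fold above its lowest. With dexamethasone it differed by 0.23 on the log2 scale in GR-REV and by 0.04 in wild type. The wild type value came close to the GR-REV one under other scalings, 0.19 against 0.22 after quantile normalization and 0.25 against 0.22 with division by the median.

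YAB5, a second YABBY gene, had signals of 471 (mock) and 477 (dexamethasone) in the wild type, and of 547 (mock) and 717 (dexamethasone) in GR-REV. Both GR-REV arrays lay above both wild type arrays, which was so for YAB5 alone of the 5. GR-REV lay wholly above wild type in the same way for 22.4% of tested probe sets. The wild type arrays differed by 0.02 on the log2 scale and the GR-REV arrays by 0.39, a 1.31-fold difference. With division by the median these were 0.23 and 0.37.

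GH3.3, the auxin-conjugating enzyme gene, had signals of 725 (mock) and 455 (dexamethasone) in the wild type, and of 728 (mock) and 299 (dexamethasone) in GR-REV. Both mock arrays were high and nearly equal, and both dexamethasone arrays were lower. The difference was -1.29 on the log2 scale in GR-REV and -0.67 in wild type, so that GR-REV dexamethasone lay 1.52-fold below the nearest other array. In the GR-REV pair 124 of 14034 tested probe sets were as low or lower, and in the wild type pair 1232. GH3.3 was the only one of the 5 lower with dexamethasone in both genotypes, as were 31.2% of tested probe sets. Under the source names GH3.3 is higher by 1.29 in GR-REV with dexamethasone and lower by 0.67 in wild type.

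Across all tested probe sets, 1.91% had a signal 2-fold or more higher with dexamethasone in GR-REV, and 1.9% had one lower by as much. Of the 5 genes, 1 was in each class. In the wild type pair 0.855% were 2-fold higher and 2.55% lower, and 0 of the 5 genes were in either class. The GR-REV difference exceeded the wild type difference by 2-fold or more in 4.9% of probe sets, among them HAT2, and fell short of it by as much in 1.9%, with none of the 5 genes. GR-REV dexamethasone held the highest signal for 24.7% of tested probe sets and for 4 of the 5 genes, PHV, HAT2, YAB3 and YAB5. It held the lowest for 23.5% and for GH3.3. For PHV and YAB3 that first place rests on 1.12-fold and 1.07-fold over the next array. The 5 genes had a median difference of 0.29 within GR-REV and of 0.02 within wild type (log2), against 0.00 and -0.06 over all tested probe sets. As the 5 genes were chosen with earlier results of these data known, these counts and medians describe them and are no evidence of enrichment.

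**Figure D2:**
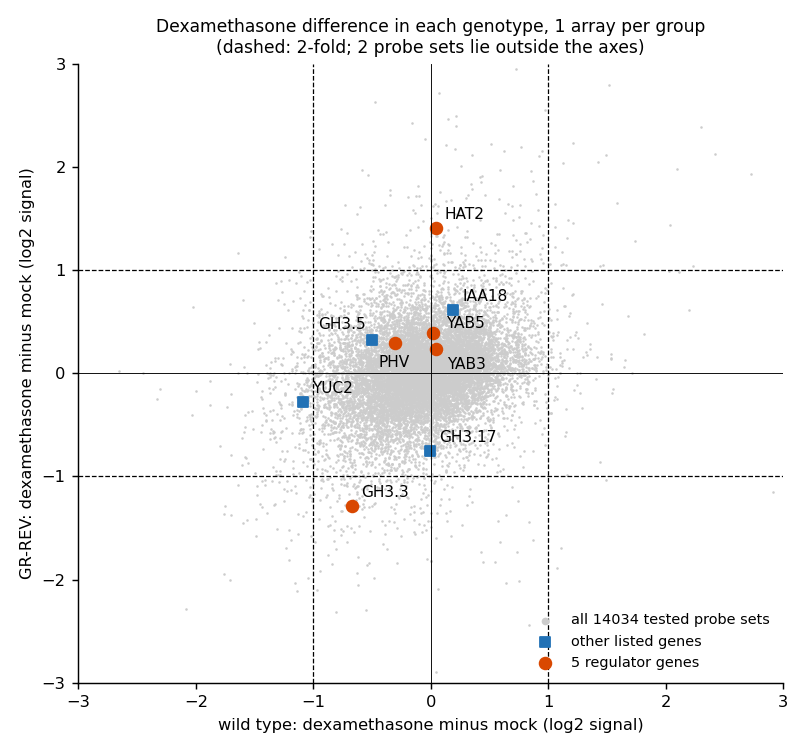
Dexamethasone minus mock on the log2 scale in wild type (horizontal) and in GR-REV (vertical) for the 5 regulator genes (circles), the other listed genes above the floor on at least 2 arrays (squares) and all 14034 tested probe sets (grey), with dashed lines at 2-fold. HAT2 lies above the upper line at 1.41 with a wild type value near 0, GH3.3 lies below the lower line at -1.29, and 2 grey points fall outside the axes.

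The limma test of genotype compared the 2 GR-REV with the 2 wild type arrays and does not use the disputed treatments. At an adjusted p under 0.05, 1.28% of tested probe sets were called higher in GR-REV, 0.492% were called lower, and 0 of the 5 genes were called (2296 of 14034 probe sets had an unadjusted p under 0.05, and none of the 5 genes did). YAB5 came nearest, with a log2 difference of 0.40 ± 0.22 (SE; adjusted p = 0.444, limma), GR-REV being higher in both treatments. HAT2 was higher by 0.53 ± 0.46 (adjusted p = 0.648, limma), and PHV by 0.17 ± 0.25 (adjusted p = 0.795, limma). For GH3.3 the value was -0.30 ± 0.47 (adjusted p = 0.818, limma) and for YAB3 0.01 ± 0.22 (adjusted p = 0.992, limma). Error in this test comes from how far the flasks of 1 genotype lie apart, so the dexamethasone difference of HAT2 and GH3.3 enters it as error. Without the GR-REV dexamethasone array HAT2 was lower in GR-REV, at -0.17, and without the GR-REV mock array it was higher by 1.23 (adjusted p = 0.0537, limma). In these fits GR-REV is a single array, assumed to vary as the 2 wild type arrays do, with 1 residual degree of freedom. GH3.3 was at 0.34 and -0.94 in the same fits and at 0.04 without wild type mock. It was at -0.64 without wild type dexamethasone, and none of these passed.

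Taken by the treatments of the titles and protocols, the genotypes differed little in the mock arrays for these 5 genes. PHV, HAT2 and YAB3 were lower in GR-REV mock than in wild type mock by 1.09, 1.11 and 1.06-fold, YAB5 was 1.16-fold higher and GH3.3 differed by 0.01 on the log2 scale. No gene of the 5 reached 2-fold there, where GR-REV was 2-fold higher for 3.76% of tested probe sets and 2-fold lower for 4.62%. In the dexamethasone arrays the GR-REV minus wild type difference was 1.21 on the log2 scale for HAT2, 0.59 for YAB5, 0.47 for PHV, 0.10 for YAB3 and -0.61 for GH3.3. In that comparison GR-REV was 2-fold higher for 5.09% of tested probe sets, HAT2 among them, and 2-fold lower for 3.31%. The mock and the dexamethasone comparison share no array. Both depend on the disputed labels. Under the source names the mock comparison sets 1074 (GR-REV) against 450 (wild type) for HAT2, and 299 against 725 for GH3.3. The dexamethasone comparison then sets 405 (GR-REV) against 463 (wild type) for HAT2, and 728 against 455 for GH3.3.

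**Figure D3:**
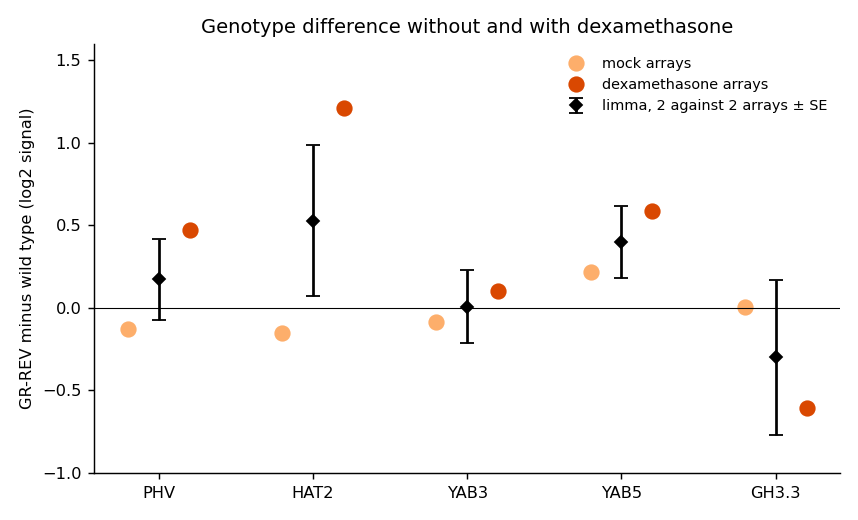
GR-REV minus wild type on the log2 scale (vertical axis) for each gene in the mock arrays (light circles) and the dexamethasone arrays (dark circles), with the limma estimate over 2 against 2 arrays (diamonds) and its SE. The mock values all lie between -0.15 and 0.22, while the dexamethasone values run from -0.61 for GH3.3 to 1.21 for HAT2. Treatments follow the titles and protocols, which the source names reverse for the GR-REV arrays.

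The limma test of treatment over both genotypes, with genotype as a term, called 0.0428% of probe sets and 0 of the 5 genes. It takes the difference between the genotypes' responses as error, with 1 residual degree of freedom. GH3.3 had a log2 difference of -0.98 ± 0.22 (SE; adjusted p = 0.215, limma), negative in both pairs, and its unadjusted p of 0.00309 was the smallest of the 5. In this fit 1615 of 14034 probe sets had an unadjusted p under 0.05. HAT2 was at 0.72 ± 0.32 (adjusted p = 0.448, limma), also positive in both pairs, though almost all of it came from GR-REV. YAB5, YAB3 and PHV were at 0.20, 0.14 and -0.01. When each array was divided by its median, GH3.3 and HAT2 passed (adjusted p = 0.0190 and 0.0318, limma), but that scaling called 418 probe sets in place of 6. With the treatments of the source names the GH3.3 value was 0.31 and the HAT2 value was -0.68, and neither passed.

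The lists of related regulators held 99 genes, of which 19 could be matched to a probe set through the annotation used, the 5 genes included. Of the other 14, 4 lay above the floor on at least 2 arrays, 2 on 1 array and 8 on none. No KANADI, LITTLE ZIPPER, auxin response factor or auxin receptor gene on the lists was matched, nor any HD-ZIP III gene but PHV and any HD-ZIP II gene but HAT2. The 9 matched genes above the floor on at least 2 arrays include the 5 genes above. Their median difference was 0.29 within GR-REV, the value of PHV, and -0.01 within wild type, against 0.00 and -0.06 over all tested probe sets. With 5 of the 9 shared, and the lists chosen with earlier results known, this is not independent of the values for the 5 genes. The other 4 went both ways within GR-REV. IAA18 had 0.61 and WES1 (GH3.5) 0.32, while YUC2 had -0.28 and GH3.17 -0.75, both ending at the floor. Within GR-REV, 1 of these 9 (HAT2) was 2-fold higher with dexamethasone and 1 (GH3.3) was 2-fold lower, and 0 were called for genotype.

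Among auxin signalling genes, IAA18, which encodes an Aux/IAA repressor of auxin response, had signals of 516 (mock) and 589 (dexamethasone) in the wild type, and of 638 (mock) and 975 (dexamethasone) in GR-REV. Like HAT2 and YAB5 it was highest in GR-REV dexamethasone, 1.53-fold above the nearest other array. Its differences with dexamethasone were 0.61 in GR-REV and 0.19 in wild type. IAA29, also an Aux/IAA gene, was above the floor in wild type dexamethasone alone, at 96.3, and IAA20, IAA30, IAA31 and IAA34 were above it nowhere.

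Of the other GH3 genes, WES1 (GH3.5), whose enzyme also conjugates auxin, had signals of 583 (mock) and 413 (dexamethasone) in the wild type, and of 269 (mock) and 336 (dexamethasone) in GR-REV. It was 1.41-fold lower with dexamethasone in wild type, as GH3.3 was, but 1.25-fold higher in GR-REV, and its lowest array was GR-REV mock. GH3.17 was above the floor in wild type mock, at 91.9, and in GR-REV mock, at 154, and at the floor in both dexamethasone arrays, at least 1.68-fold lower in GR-REV. GH3.1 and GH3.9 were at the floor on all 4 arrays. YUC2, a flavin monooxygenase gene of auxin synthesis, had signals of 196 (mock) and 92.0 (dexamethasone) in the wild type and of 111 in mock-treated GR-REV, and was at the floor once GR-REV received dexamethasone. Its 2.13-fold lower signal with dexamethasone in wild type was the only 2-fold difference of the 9 genes in that pair, and ends close to the floor. INO, a YABBY gene of the ovule, was above the floor in wild type mock alone, at 106.

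Profiles were compared by centring each gene's log2 signals on their mean over the 4 arrays and taking the Euclidean distance between genes, among 6512 probe sets with 1 listed gene above the floor on all arrays. For HAT2, 45 of these lay within a distance of 0.5, the fewest of the 5, and for GH3.3 90 did. The flat profiles of YAB3, PHV and YAB5 had 3390, 2643 and 1810 within it, so their nearest genes identify little. The gene nearest HAT2 was AGO7, which encodes an Argonaute protein needed to make trans-acting small RNAs that act in leaf development, at a distance of 0.17 over the 4 arrays. AGO7 had signals of 126 (mock) and 131 (dexamethasone) in the wild type, and of 104 (mock) and 263 (dexamethasone) in GR-REV. The first 3 of these lie just above the floor. Second was AT4G16140 at 0.18, with 503 in GR-REV dexamethasone and 215 to 250.1 elsewhere.

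The genes nearest GH3.3 were GT72B1 (UGT72B1), a glucosyltransferase gene, at 0.14, and BCAT4, an aminotransferase gene of methionine-derived glucosinolate synthesis, at 0.16. GT72B1 had signals of 672 (mock) and 474 (dexamethasone) in the wild type, and of 679 (mock) and 278 (dexamethasone) in GR-REV. BCAT4 had 7870 and 4796 in wild type mock and dexamethasone, and 6970 and 3276 in GR-REV mock and dexamethasone. In both, as in GH3.3, each dexamethasone array lay below each mock array. They were picked for profiles near that of GH3.3, so this likeness follows from that choice. For PHV the nearest were AT2G44710 and AT3G50550, at 0.04 and 0.06, for YAB3 AT1G14270 and AT4G31140, at 0.02 and 0.03, and for YAB5 AT1G71980 and AT5G57700, at 0.04 and 0.05. Among the 5 genes themselves PHV and YAB3 were closest, at 0.30, and HAT2 and GH3.3 farthest apart, at 2.14.

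**Figure D4:**
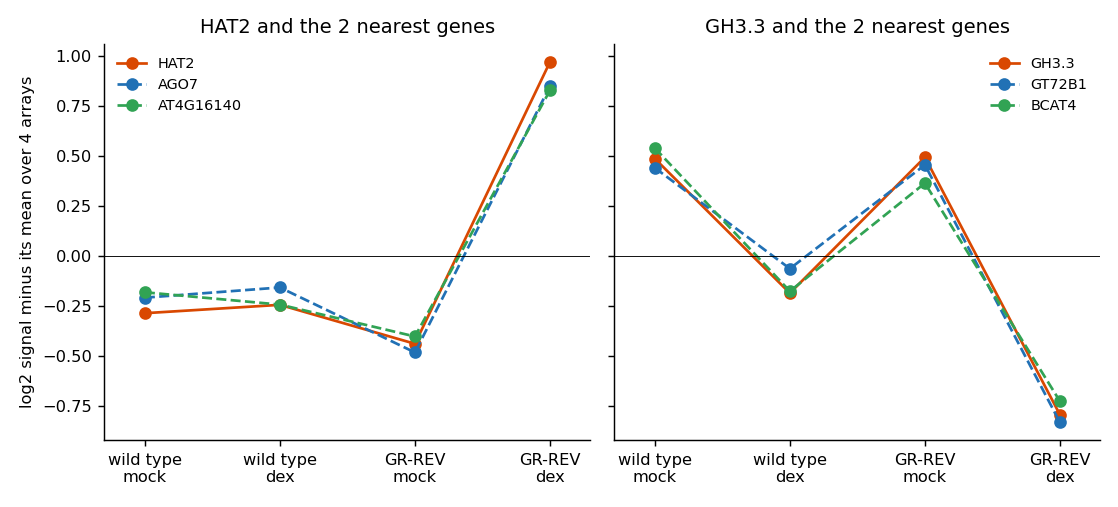
Log2 signal minus its mean over the 4 arrays (vertical axis), by array, for HAT2 with AGO7 and AT4G16140 (left) and for GH3.3 with GT72B1 and BCAT4 (right), joined by lines for legibility. The genes on the left are high in GR-REV dexamethasone alone, and those on the right are lower in both dexamethasone arrays than in both mock arrays. The genes beside HAT2 and GH3.3 were picked as nearest in profile, so the shared shape follows from that choice.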

How the data were processed

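Gene expression was measured on 4 Affymetrix ATH1 arrays, 1 per group. The deposited values are MAS5 intensities on a linear scale, 1 per probe set, per the submitters' processing notes, which give no MAS5 version. Their 2% trimmed mean was 500.05 to 500.06 on each array, so the authors had scaled them, and no scaling was added. The arrays were washed at 1 fluidics station in 4 modules, per the file headers, 1 array in each, and groups cannot be told apart from modules. Of 22810 probe sets, 64 controls were left out. Signals were floored at the 40th percentile (91.4) and log2 transformed, and the 14034 probe sets above it on at least 2 arrays were tested. Names came from the platform annotation, updated through RefSeq TAIR10.1: 13513 probe sets had 1 gene, of which 13436 matched RefSeq, 503 had several and 8730 had none listed. Genotype and treatment were tested with limma 3.58.1 under R 4.3.3 (eBayes with an intensity trend; Benjamini-Hochberg adjustment over all 14034), with 2 and 1 residual degrees of freedom. As each group was 1 flask, these p-values do not measure the spread between replicate flasks. Dexamethasone pairs were described by a 2-fold rule. The test was tried on simulated data with 200 of 13869 probe sets changed by 1.5 (log2). It found 96% of them for genotype and 99% for treatment, with 3 and 17 false calls. The changed probe sets were drawn from those with mean log2 signals above that of any of the 5 genes. Noise had 1 level for all probe sets, and each change was equal in both arrays of a side. These shares therefore do not give the power of the test for the 5 genes. Named genes were the 5 genes, the 2 genes nearest to each in profile, and matched genes of the lists. The members and lists were chosen with earlier results of these data known. Alternatives changed the floor, the scaling, the filter, the treatment labels, a treatment term and the arrays included. Detection calls were not used here. The number of arrays limits the precision.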

Additional observations from a re-analysis of the deposited data

Results flagged for a closer look

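The genes flagged here drew attention because they moved one way with dexamethasone in GR-REV and the other way in wild type. All but TCP15 lay above the floor on all 4 arrays. Each rests on 1 array per group, and the difference between genotypes was not tested. For PHV the GR-REV difference exceeded the wild type one by 0.60 on the log2 scale (0.29 against -0.31), and for WES1 by 0.82 (0.32 against -0.50). AT2G44710 and AT3G50550 differed in the same way by 0.58 and 0.55. They were named for profiles like that of PHV, so their likeness to it follows from that choice. AT4G16140, near HAT2 in profile, differed by 1.29 and AT5G57700, near YAB5, by 0.44, in both cases with a wild type value close to 0 (-0.06 and -0.05). For RR16 the difference was -1.12, with -0.81 in GR-REV and 0.31 in wild type. PYK10, the root gene, did not change sign, with -0.07 in GR-REV and -0.48 in wild type. TCP15, which was at the floor in GR-REV mock, had 1.02 in GR-REV and -0.09 in wild type. The sign of wild type values this close to 0, in AT4G16140, AT5G57700 and TCP15, depends on the scaling. Division by the median, which shifts each array by a constant, moved the wild type value of YAB5 from 0.02 to 0.23. Under the source names the GR-REV value takes the sign of the wild type one in each gene flagged here for opposite signs. PYK10 has opposite signs there.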

How the results depend on the processing

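The 2-fold differences of HAT2 and GH3.3 in the GR-REV pair stayed past 2-fold and kept their sign under all 5 alternatives of floor and scaling, from 1.23 to 1.41 (HAT2) and from -1.07 to -1.30 (GH3.3) on the log2 scale. They turned to -1.41 and 1.29 under the treatments of the source names, where the difference of differences was -1.45 for HAT2 and 1.96 for GH3.3. The limma treatment value became -0.30 for PHV, -0.68 for HAT2, -0.10 for YAB3, -0.18 for YAB5 and 0.31 for GH3.3, and the difference of differences of PHV went from 0.60 to 0.02. With division by the median the difference of differences was 0.37 for PHV, -0.04 for YAB3 and 0.14 for YAB5, against 0.60, 0.19 and 0.37. The PHV treatment value, near 0, turned to 0.050 (quantile normalization) and 0.090 (median scaling), and YAB3 genotype to -0.014 (quantile normalization). Genotype values with 1 array left out ran from -0.17 to 1.23 for HAT2, from -0.11 to 0.12 for YAB3 (-0.014 without wild type mock) and from -0.94 to 0.34 for GH3.3 (0.036 without wild type mock).

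Counts over all tested probe sets moved more. The 249 genotype calls became 418 with the floor value added, 427 with division by the median, 997 with treatment as a term and 30 with all probe sets tested, and 81 to 368 with 1 array left out. The 6 treatment calls became 62 with the 25th percentile floor, 2 with the floor value added, 84 after quantile normalization, 418 with division by the median, and 0 with the source names or with all probe sets tested. In the GR-REV pair the 535 2-fold differences became 996 (25th percentile floor), 234 (60th) and 283 (floor value added), in wild type the 478 became 1238, 168 and 178, and for the difference of differences the 955 became 2055, 367 and 416, and 1842 under the source names. Scaling moved the wild type split from 120 higher and 358 lower to 205 and 237 (quantile) and 303 and 165 (median), and the genotype difference in the response from 688 higher and 267 lower to 451 and 380, and 370 and 538. Division by the median moved the median wild type difference of all tested probe sets from -0.06 to 0.13. A floor or filter changes which probe sets are tested; other causes were not tested. No replicate numbers pair the arrays; the fits with treatment or genotype as a term are those given above.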

Other observations

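Other regulators were picked by name after their values were seen, and their values are given with no test of a pattern. TCP15, a TCP transcription factor gene of leaf and internode growth, had signals of 130 (mock) and 122 (dexamethasone) in the wild type, lay at the floor in mock-treated GR-REV and reached 186 with dexamethasone there, at least 2.03-fold higher. RR16, a type-A response regulator gene of cytokinin signalling, had signals of 218 (mock) and 269 (dexamethasone) in the wild type, and of 366 (mock) and 208 (dexamethasone) in GR-REV, so that GR-REV mock stood highest. HAT3.1, a homeodomain gene outside the HD-ZIP families, had signals of 157 and 174 on the wild type arrays and of 361 and 444 on the GR-REV arrays. The difference was 1.27 on the log2 scale (adjusted p = 0.0734, limma), which did not pass. ILR3, picked in the same way, differed little, with 1413 (mock) and 1563 (dexamethasone) in the wild type, and 1280 (mock) and 1390 (dexamethasone) in GR-REV.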
